A study of Homo sapiens with 8 samples.

Results

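Distal peaks inside genes are stretches of open chromatin that overlap an annotated transcript but lie more than 10000 bp from its start. They were chosen by position alone from the deposited peak annotation, and 19896 of 62528 peaks (31.8%) met the rule. They were followed by ATAC-seq, which marks DNA that a transposase can reach, in JJN3 and KMS11, established human lines of multiple myeloma, which is a plasma cell cancer. Each line was kept for 48 h with both drugs together, with pomalidomide at 200 nM, with GNE-781 at 40 nM, or with the solvent DMSO, and each of these 8 conditions has 1 library. In the combination the drugs were given at the same concentrations as alone. All cells grew in RPMI medium with 5% serum. The 4 libraries of a line share that line's genome, so that effects of a drug were tested over both lines together, and whether libraries came from separate cultures is not stated. The spread behind the p-values is therefore how far the 2 lines disagree in their treatment changes. It is mixed with noise between single libraries, which may be technical. The same spread serves the comparison of the lines, where differently treated libraries of a line stand in for replicates.

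Open chromatin far inside a gene often marks an enhancer, a stretch of DNA to which transcription factors bind and from which they raise transcription of the gene around it or of another gene nearby. Clusters of strong enhancers, called super-enhancers, mark the identity genes of a cell, and in myeloma they lie at genes of plasma cell regulators. Pomalidomide binds cereblon, the substrate receptor of a ubiquitin ligase, and leads the zinc finger factors IKZF1 and IKZF3 to destruction. GNE-781 is a bromodomain inhibitor of EP300 and CREBBP, acetyltransferases that act as co-activators at active enhancers. The host gene named beside a peak is the annotated transcript in which it lies, and whether the peak regulates that gene was not measured.

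The libraries held 1366628 to 5435673 counts in peaks, and the median distal in-gene peak had 10 counts in the shallowest library (JJN3 DMSO) and 39 in the deepest (KMS11 combination). Of the plasma cell markers, 8 of 10 genes had an open promoter peak, and the summed promoter signal of those genes was 302 to 345 CPM (counts scaled to the library's total) in JJN3 and 232 to 266 CPM in KMS11. TNFRSF17 and JCHAIN had no promoter peak. Of 10 markers each, 2 had one in the T and NK cell list (52.3 to 82.9 CPM summed), 1 in the myeloid list (18.8 to 48.1 CPM), 3 in the stromal and endothelial list (34.4 to 70.3 CPM) and 2 in the erythroid list (40.4 to 70.1 CPM). Those without one included CD3E, CD3D and CD3G of T cells, LYZ and CD14 of myeloid cells and GATA1 of erythroid cells. All values below are CPM after library scaling unless another unit is named, and changes are log2 fold changes ± SE from 1 model over the 8 libraries. In a bulk library, a peak open in fewer cells and a peak less open in each cell cannot be told apart.

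A small group of distal in-gene peaks contains the annotated RefSeq start of another transcript or of a shorter form of the host gene. Of 520 such peaks, 11 (2.12%) were called in the combination, against 6.21% of all distal in-gene peaks tested, and 8 of the 11 hold the whole stretch from 250 bases before to 50 bases after a start. These windows are shown because they are the called peaks whose letters are at hand. The 4 below belong to protein-coding genes. Sequences are from RefSeq, build GRCh38.p14, written 5′ to 3′ on the strand of the gene, and capitals mark the letters of 4 short motifs found on either strand.

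HSD11B1, chr1:209685929-209686228, + strand: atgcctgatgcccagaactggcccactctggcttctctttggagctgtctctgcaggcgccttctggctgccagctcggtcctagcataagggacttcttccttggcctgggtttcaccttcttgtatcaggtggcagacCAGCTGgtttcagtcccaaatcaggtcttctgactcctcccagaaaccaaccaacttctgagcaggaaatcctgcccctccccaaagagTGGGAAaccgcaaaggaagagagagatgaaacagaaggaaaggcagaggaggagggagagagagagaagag
RCAN1, chr21:34526773-34527072, - strand: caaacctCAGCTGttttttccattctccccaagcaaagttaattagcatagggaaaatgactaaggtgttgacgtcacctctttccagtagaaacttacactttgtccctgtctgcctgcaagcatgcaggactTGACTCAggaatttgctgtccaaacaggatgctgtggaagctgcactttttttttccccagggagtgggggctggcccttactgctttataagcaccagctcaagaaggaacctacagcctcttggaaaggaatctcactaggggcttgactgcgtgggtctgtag
CDC14B, chr9:96566927-96567226, - strand: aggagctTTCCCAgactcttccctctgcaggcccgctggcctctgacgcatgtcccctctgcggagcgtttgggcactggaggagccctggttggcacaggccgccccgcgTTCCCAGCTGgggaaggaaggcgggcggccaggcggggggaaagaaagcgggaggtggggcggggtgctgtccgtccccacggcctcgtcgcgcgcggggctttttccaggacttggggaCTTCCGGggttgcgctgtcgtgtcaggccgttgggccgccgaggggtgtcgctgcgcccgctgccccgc
INPP4B, chr4:142405397-142405696, - strand: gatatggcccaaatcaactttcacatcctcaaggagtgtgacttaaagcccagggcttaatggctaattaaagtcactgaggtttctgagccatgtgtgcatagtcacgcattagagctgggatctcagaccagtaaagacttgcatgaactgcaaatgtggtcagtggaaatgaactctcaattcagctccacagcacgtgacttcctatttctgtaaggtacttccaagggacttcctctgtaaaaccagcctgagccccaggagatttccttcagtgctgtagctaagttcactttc

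The motifs were TGANTCA of AP-1 factors, TGGGAA of IKAROS factors, CCGGAAG of ETS factors and CAGCTG, an E-box. They were present in 7.71%, 24.0%, 10.3% and 17.9% of all 35116 RefSeq start windows of this length. HSD11B1, which encodes an enzyme that regenerates cortisol, held 1 IKAROS match and 1 E-box. RCAN1, an inhibitor of calcineurin, held 1 AP-1 match and 1 E-box. CDC14B, a phosphatase, held 2 IKAROS matches, of which 1 overlaps its E-box, and 1 ETS match. INPP4B, a phosphatase that acts on phosphoinositides, held no match. A match is only a run of letters and not a measured binding site.

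The peak on the HSD11B1 window lies inside the noncoding transcript RP1-28O10.1, 37865 bp from its start. It held 37 raw counts in JJN3 and 132 in KMS11 under the combination, 40 and 123 under pomalidomide, 10 and 34 under GNE-781, and 6 and 35 under DMSO. It was high in both lines wherever pomalidomide was present. It rose by 1.56 ± 0.32 in the combination (adjusted p = 0.00152, quasi-likelihood test of edgeR, Benjamini-Hochberg adjustment, as for every adjusted p here) and was called for pomalidomide alone (adjusted p = 0.00495). The peak on the RCAN1 window held 23 and 121 raw counts under the combination and 13 and 25 under DMSO in JJN3 and KMS11, a rise of 1.21 ± 0.35 (adjusted p = 0.0284). Within JJN3 the change was 0.18 and within KMS11 1.64. The CDC14B and INPP4B peaks rose by 0.85 ± 0.26 (adjusted p = 0.0431) and 0.95 ± 0.29 (adjusted p = 0.0374). Neither was called for pomalidomide alone.

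The distal in-gene peaks were spread over 7302 host genes. Of these genes, 3474 held a single peak and 285 held at least 10. PTPRN2, which encodes a phosphatase-like protein of secretory vesicles, held the most with 66. CNTNAP2, a neuronal adhesion gene, had 43, AUTS2 had 32, the haematopoietic transcription factor gene RUNX1 had 30 and the phosphodiesterase gene PDE4D had 29. The median peak lay 47242 bp from the transcript start, the farthest 2079672 bp away, and 26.9% were more than 100 kb away. Taken over peaks, the median length of the host transcript was 104605 bp, so that genes with several peaks counted more than once. Where the host matched a RefSeq gene, 91.4% of peaks lay in protein-coding genes and 6.87% in long noncoding RNA genes. RefSeq placed 10.1% of the peaks in at least 2 overlapping genes and 1845 peaks in no gene, so that the host is not the only possible assignment. Whether a peak is intronic or exonic was not analysed here.

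The peaks were narrow and of modest height. Their median width was 379 bp, and their median signal was 20.7 CPM per kb of peak among those tested, against 32.9 CPM per kb in promoter peaks, those within 1000 bp of a start. A peak was tested if its mean was at least 2 CPM, which 19796 distal in-gene peaks and 62234 peaks in all passed. At the border of the rule, the 531 tested peaks just inside it (over 10000 to 11000 bp) had a median of 8.12 CPM and the 562 in-gene peaks just outside it (over 9000 to 10000 bp) had 8.47 CPM.

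Of the counts that fell in peaks, these peaks held about the same share in every library. In JJN3 they held 22.2% of counts under the combination, 21.28% under pomalidomide, 21.93% under GNE-781 and 22.57% under DMSO. In KMS11 the shares were 20.5%, 21.58%, 20.41% and 21.09% in the same order. Libraries with pomalidomide averaged 0.108 percentage points lower than those without (exact permutation p = 0.833, two-sided), and libraries with GNE-781 averaged 0.371 points lower (exact permutation p = 0.389). Each of these tests had 36 arrangements within lines and could not give a p under 0.0556. The share in JJN3 was 1.1 points higher than in KMS11 (exact permutation p = 0.0571, 70 arrangements, smallest possible p 0.0286). Adjusted over these 3 tests, the p-values were 0.833, 0.584 and 0.171. The ranges of the lines overlapped, since JJN3 under pomalidomide lay below KMS11 under pomalidomide.

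Under the combination, single peaks inside CTNND1, ITGA10, BCL9 and many other genes opened in both lines. Others closed in MBNL1 and CDKN2B-AS1. Peaks in the plasma cell gene SDC1 were also called lower, but those calls did not hold with every library left out. Of 19796 distal in-gene peaks, 515 rose and 715 fell against DMSO, 6.21% in all, where 4.79% of all tested peaks were called (2.11% higher and 2.67% lower). In promoter peaks 1.69% were called, in peaks 1 to 10 kb from a start 5.34%, and in distal peaks outside genes 5.8%. The share of distal in-gene peaks called was therefore near that of distal peaks outside genes, and the difference between classes was not tested.

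**Figure D1:**
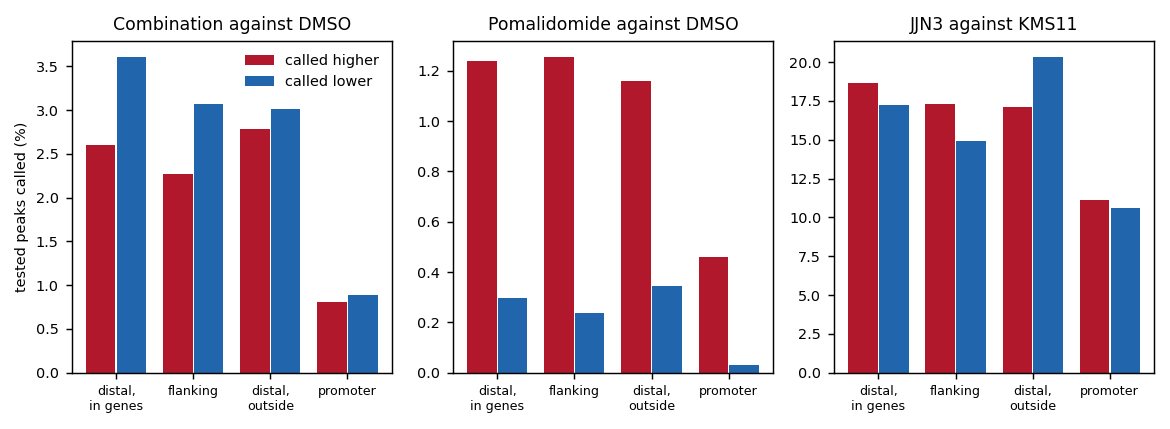
Percent of tested peaks called higher (red) and lower (blue) in the combination against DMSO, in pomalidomide against DMSO and in JJN3 against KMS11, for 4 classes of peaks by position; each panel has its own y axis. Distal in-gene peaks, at 6.21%, 1.54% and 35.9% in both directions together, were called more often than promoter peaks, at 1.69%, 0.49% and 21.7%. Flanking peaks had 5.34%, 1.5% and 32.2%, and distal peaks outside genes had 5.8%, 1.5% and 37.5%.

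Levels under DMSO are part of the contrast that made the calls, so they describe the called peaks and test nothing. Under DMSO the 515 that rose had a median of 5.34 CPM, the 715 that fell had 19.7 CPM, and all tested distal in-gene peaks had 7.58 CPM. Both groups were wider than usual, with medians of 559 bp and 509 bp against 380 bp. Their distances from the start were ordinary, with medians of 48104 bp and 44869 bp against 47240 bp. Of the rises, 495 went the same way in both lines, as did 697 of the falls, which calling over both lines favours. The share called varied little with distance. From 10 to 20 kb 6.29% were called, from 20 to 50 kb 6.18%, from 50 to 100 kb 6.68%, from 100 to 200 kb 5.23%, from 200 to 500 kb 6.77% and beyond 500 kb 5.64%. These counts rested on single libraries. They were 135 without the KMS11 combination library, 232 without the KMS11 DMSO library and 550 without the JJN3 combination library, in place of 1230.

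CTNND1 encodes p120 catenin, which holds cadherins at the cell membrane, and its only distal in-gene peak showed the lowest p among the rises. This peak, chr11:57778256-57779005, lies 14403 bp into the gene. It stood at 34.4 CPM in JJN3 and 39.4 CPM in KMS11 under the combination, 14.3 and 28.7 under pomalidomide, 9.62 and 1.94 under GNE-781, and 3.01 and 2.33 under DMSO. Nearly closed under DMSO, it was open in both lines whenever pomalidomide was present. The rise in the combination was 3.9 ± 0.41 (14.9-fold, adjusted p = 3.36e-09).

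ITGA10 encodes the alpha subunit of a collagen-binding integrin. Its peak at chr1:145891780-145892558 had 40.7 CPM in JJN3 and 65.4 CPM in KMS11 under the combination, against 15 and 15.5 CPM under DMSO, a rise of 1.86 ± 0.23 (adjusted p = 3.13e-07). SYT2 encodes a calcium sensor of vesicle release, and its peak at chr1:202615163-202616468 had 103 and 76.0 CPM under the combination, against 45.8 and 22.5 CPM under DMSO, a rise of 1.49 ± 0.2 (adjusted p = 1.43e-06). The combination libraries of each line lay above the DMSO libraries of both lines at these peaks.

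BCL9 encodes a co-activator of beta-catenin. Its peak at chr1:147622650-147623216 stood at 31.0 and 29.6 CPM under the combination, against 6.76 and 5.95 CPM under DMSO, a rise of 2.3 ± 0.32 (adjusted p = 3.32e-06). ATXN1 encodes a chromatin-bound co-repressor, and its peak at chr6:16635817-16636689 had 83.4 and 36.3 CPM against 33.1 and 8.8 CPM, a rise of 1.68 ± 0.23 (adjusted p = 1.56e-06). At both peaks the combination exceeded DMSO within each line, which the rule for naming peaks required. At the SVIL peak chr10:29658872-29659751, in the gene of the actin-binding supervillin, KMS11 had 113 CPM under the combination and 36.8 CPM under DMSO, and JJN3 had 12.6 and 4.51 CPM. That peak rose by 1.64 ± 0.24 (adjusted p = 8.42e-06). AF131217.1 and RP11-15B24.5, noncoding transcripts, gave rises of 2.24 ± 0.32 and 2.42 ± 0.36 (adjusted p = 5.1e-06 and 1.06e-05).

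Among the falls, the lowest p belonged to XKR6, a member of the XK-related membrane protein family. Its peak at chr8:10965569-10966234 had 29.6 CPM in JJN3 and 10.9 CPM in KMS11 under the combination, against 72.2 and 38.6 CPM under DMSO. It fell by 1.58 (SE 0.22, adjusted p = 4.64e-06), and each of the 6 drug-treated libraries was lower than the DMSO library of its line. MBNL1 encodes a regulator of alternative splicing. Its peak at chr3:152332466-152333195 had 12.6 and 6.59 CPM, against 36.8 and 31.8 CPM under DMSO, and fell by 1.97 (SE 0.29, adjusted p = 7.25e-06).

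CDKN2B-AS1, also called ANRIL, is a long noncoding RNA that runs antisense to the cell cycle inhibitor gene CDKN2B. Its peak at chr9:22105022-22105466 fell to 6.3 CPM in JJN3 and 5.52 CPM in KMS11 under the combination, against 33.8 and 19.4 CPM under DMSO, a change of -2.05 ± 0.32 (adjusted p = 2.53e-05). BLOC1S5-TXNDC5 is a read-through transcript that includes TXNDC5, which encodes a protein disulfide isomerase of the endoplasmic reticulum. Its peak at chr6:7962953-7963777 had 34.4 and 15.5 CPM, against 63.1 and 49.7 CPM under DMSO, a change of -1.34 ± 0.21 (adjusted p = 3.5e-05). Here pomalidomide alone left 67.3 CPM in JJN3, about the DMSO level, and 31.5 CPM in KMS11.

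UNC5D encodes a netrin receptor, and its peak at chr8:35703539-35704076 had 23.8 and 3.56 CPM under the combination, against 65.4 and 18.1 CPM under DMSO (-1.82 ± 0.27, adjusted p = 1.1e-05). The UMAD1 peak chr7:7944471-7945398 had 91.1 and 24.4 CPM against 164 and 77.9 CPM (-1.28 ± 0.19, adjusted p = 1.56e-05). The VOPP1 peak chr7:55508271-55508926 had 9.21 and 11.0 CPM against 43.6 and 29.5 CPM (-1.73 ± 0.28, adjusted p = 4.29e-05). Of these 15 peaks, 12 kept their call whichever library was left out. The others were AF131217.1, SVIL and BLOC1S5-TXNDC5, whose adjusted p without the KMS11 DMSO library was 0.15, 0.411 and 0.109.

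**Figure D2:**
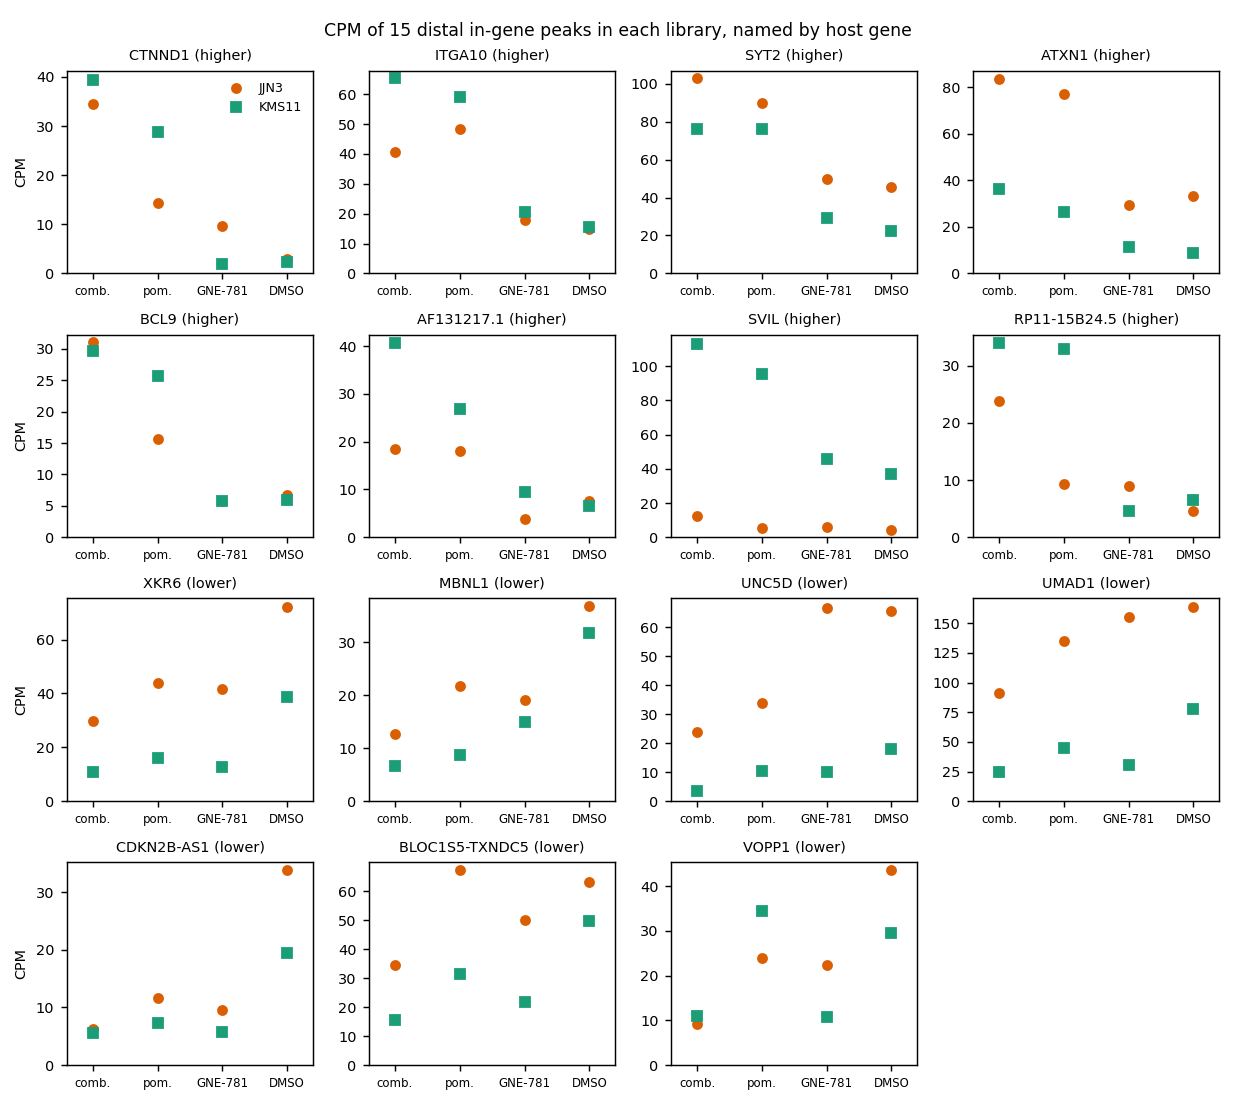
CPM (y axis, from 0, its own range in each panel) of 8 distal in-gene peaks that rose and 7 that fell in the combination, from those with the lowest p, in each of the 8 libraries; circles are JJN3 and squares KMS11, 1 library per point. At CTNND1 and ITGA10 the libraries with pomalidomide lie above those without it, and at XKR6, MBNL1 and CDKN2B-AS1 the DMSO libraries are the highest of each line.

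Pomalidomide alone opened more of these peaks than it closed. Against DMSO, 245 distal in-gene peaks rose and 59 fell, 1.54% in all, where 1.25% of all tested peaks were called (1.03% higher and 0.228% lower). In promoter peaks 0.49% were called, in peaks 1 to 10 kb from a start 1.5%, and in distal peaks outside genes 1.5%. The rises had a median of 6.61 CPM under DMSO and a median log2 change of 1.51, and the falls had 23 CPM and -1.23. The counts depended on the KMS11 libraries. Without the KMS11 pomalidomide library 25 peaks were called and without the KMS11 DMSO library 34.

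The pomalidomide rises were led by peaks already described, ITGA10 (1.87, adjusted p = 1.46e-06), CTNND1 (3.14, adjusted p = 6.65e-06) and SYT2 (1.4, adjusted p = 1.52e-05). PPP1R14D, which encodes an inhibitor of protein phosphatase 1, had at chr15:40815071-40815967 21.7 CPM in JJN3 and 30.0 CPM in KMS11 under pomalidomide, against 5.26 and 5.44 CPM under DMSO (2.3, adjusted p = 1.52e-05). In DLGAP1, a gene of a postsynaptic scaffold protein, the peak chr18:4125100-4126269 had 117 and 46.7 CPM, against 46.6 and 17.6 CPM (1.37, adjusted p = 1.52e-05). SH3RF2, which encodes a RING finger protein, had 20.0 and 30.7 CPM, against 6.01 and 5.44 CPM (2.25, adjusted p = 2.48e-05). At all of these the level rose at least 2-fold in each line, apart from the SYT2 peak in JJN3, which had 90.0 CPM under pomalidomide and 45.8 CPM under DMSO.

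The falls were led by ZNF250, a zinc finger gene, where the peak chr8:144878546-144879213 had 17.3 CPM in JJN3 and 5.15 CPM in KMS11 under pomalidomide, against 43.6 and 16.8 CPM under DMSO (-1.5, adjusted p = 0.00112). The MBNL1 and CDKN2B-AS1 peaks fell by 1.32 and 1.46 (adjusted p = 0.00265 and 0.00306). MBP, the gene of myelin basic protein, CPQ, the gene of a secreted carboxypeptidase, and XKR6 followed at -1.93, -1.46 and -1.0 (adjusted p = 0.00458, 0.00474 and 0.00464). Of the 12 peaks, the calls of ITGA10 and DLGAP1 held whichever library was left out. Without the KMS11 DMSO library 10 of the 12 were not called.

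GNE-781 alone closed 5 distal in-gene peaks and opened none, 0.0253% of those tested, where 0.0209% of all tested peaks were called. GALNTL6 encodes a protein of the GalNAc transferase family. Its peak at chr4:172985536-172986636 had 18.6 CPM in JJN3 and 16.8 CPM in KMS11 under GNE-781, against 33.1 and 62.1 CPM under DMSO (-1.5 ± 0.24, adjusted p = 0.00331). The CDKN2B-AS1 peak fell to 9.62 and 5.82 CPM, against 33.8 and 19.4 CPM under DMSO (-1.76, adjusted p = 0.0279). XKR6 fell by 1.2 (adjusted p = 0.0289), the noncoding AC007319.1 by 1.93 (adjusted p = 0.0289) and KANK1, whose product shapes the actin cytoskeleton, by 1.54 (adjusted p = 0.0487). At the GALNTL6 and KANK1 peaks the combination level lay between those of GNE-781 and DMSO in both lines. Without the KMS11 DMSO or the KMS11 GNE-781 library all 5 calls were lost, and the count ranged from 1 to 18 over the 8 libraries left out in turn.

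The combination was next set against each drug alone. Against GNE-781, 243 distal in-gene peaks rose and 28 fell, 1.37%, where 1.09% of all tested peaks were called (0.999% higher and 0.0948% lower). Against pomalidomide 1 rose and 3 fell, 0.0202%, where 0.0112% of all tested peaks were called. At an unadjusted p under 0.05, 1793 were counted in the comparison with pomalidomide. DESeq2's Wald test gave 434 at that level and 0 after adjustment.

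The peak with the lowest p between the combination and GNE-781 lies in ST14, the gene of the membrane protease matriptase, at chr11:130178425-130179226. It had 82.9 CPM in JJN3 and 25.6 CPM in KMS11 under the combination, 23.1 and 3.88 CPM under GNE-781, and 31.6 and 13.5 CPM under DMSO (combination against GNE-781 2.13, adjusted p = 3.25e-07). GNE-781 alone left this peak below DMSO, and the combination left it above. GGTA1P, a pseudogene of a galactosyltransferase, had 23.8 and 33.7 CPM under the combination, against 5.77 and 6.79 CPM under GNE-781 (2.23, adjusted p = 9.86e-06). CTNND1, BCL9, ATXN1 and AF131217.1 rose by 2.98, 2.39, 1.6 and 2.11. Among the falls, C6orf106 had 17.5 and 9.79 CPM under the combination, against 44.2 and 28.1 CPM under GNE-781 (-1.44, adjusted p = 0.000203). PCCB, which encodes a subunit of propionyl-CoA carboxylase, CNTN5, which encodes a neuronal adhesion protein, RIN3, SAMD12 and UNC5D fell by 2.02, 1.44, 1.0, 0.94 and 1.5. Of these 12 peaks, ATXN1, BCL9 and ST14 kept their call whichever library was left out, and CTNND1 ranged from 1.65 to 4.44 with a highest adjusted p of 0.106. The count of 271 was 22 without the KMS11 GNE-781 library, 39 without the KMS11 combination library and 136 without the JJN3 combination library.

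Of the 4 peaks that differed between the combination and pomalidomide, 3 lie in PTPN14, VOPP1 and SEC24D. The peak in PTPN14, the gene of a tyrosine phosphatase, had 7.27 CPM in JJN3 and 18.7 CPM in KMS11 under the combination, against 1.0 and 4.72 CPM under pomalidomide (2.14, adjusted p = 0.0263). VOPP1 and SEC24D, of which SEC24D encodes a coat protein of vesicles that leave the endoplasmic reticulum, fell by 1.5 and 1.76 (adjusted p = 0.00867 and 0.00974). All 4 calls were lost without the KMS11 combination, the KMS11 pomalidomide or the JJN3 combination library, each of which left 0 calls.

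The combination was also compared with the sum of the separate drug changes on the log2 scale. No distal in-gene peak was called as departing from that sum by edgeR (0.0% of all tested peaks), with 581 at an unadjusted p under 0.05. DESeq2 called 0 too, with 76 at that level. With 1 library per line and condition, a peak had 3 residual degrees of freedom, and this comparison carries the error of all 4 conditions. At CTNND1, for example, the separate changes were 3.14 and 0.92 and the combination 3.9.

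Some host genes held several called peaks. Of 7284 host genes tested, 1014 had a distal in-gene peak called in the combination. The 3474 genes with a single peak could not show 2 calls, and genes with many peaks had more chances. The counts that follow were not compared with what peak number alone would give. Among the 1014, 23 genes had at least 2 peaks that rose and none that fell. Another 60 had at least 2 that fell and none that rose, and 68 had calls in both directions. CDK6 is among the last. In CDK6, the gene of a G1 cyclin-dependent kinase, the peak chr7:92763563-92764190 rose by 1.37 (adjusted p = 0.0277). The peaks chr7:92778996-92779433 and chr7:92813402-92814139 of the same gene fell by 1.34 and 1.03 (adjusted p = 0.0137 and 0.0109).

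PTPRN2 had 9 falls among its 66 peaks and TTC34 had 9 among its 16, and in both genes the median change was more negative in JJN3, a difference between lines that was not tested. The summed CPM over all PTPRN2 distal in-gene peaks was 1060 in JJN3 and 909 in KMS11 under the combination, 1220 and 1160 under pomalidomide, 1530 and 1150 under GNE-781, and 2070 and 1090 under DMSO. For TTC34 the sums were 1090 and 911 under the combination, 1460 and 1130 under pomalidomide, 1560 and 1330 under GNE-781, and 2550 and 1030 under DMSO. The JJN3 DMSO library stood far above the other 7 libraries at both genes. All 16 TTC34 peaks were lower in the combination in JJN3, with a median of -1.27, against -0.21 in KMS11. For PTPRN2 63 of 66 were lower in JJN3 (median -0.89) and 47 of 66 in KMS11 (median -0.32). Without the JJN3 DMSO library, which is also the shallowest, no peak of either gene was called.

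NSMCE2, the gene of a SUMO ligase of the SMC5/6 complex, had 7 falls among 21 peaks, with medians of -0.54 in JJN3 and -0.46 in KMS11. The summed CPM was 406 in JJN3 and 152 in KMS11 under the combination, against 584 and 224 under DMSO (-0.54 ± 0.13, adjusted p = 0.007). XKR6 had 4 falls among 14. In the other direction, NCOA2 (a nuclear receptor co-activator), SEMA3A (a secreted guidance cue) and INPP4B had 3 rises each and no fall, and SRGAP2 (a regulator of the cytoskeleton) and NRCAM (a neuronal adhesion molecule) had 3 rises and 1 fall each. The count for NSMCE2 was 1 without the KMS11 DMSO library, and those of SRGAP2, INPP4B, NCOA2 and SEMA3A were 0. NRCAM had 0 rises and 3 falls without the JJN3 DMSO library, and XKR6 had 1 fall without the JJN3 combination library.

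**Figure D3:**
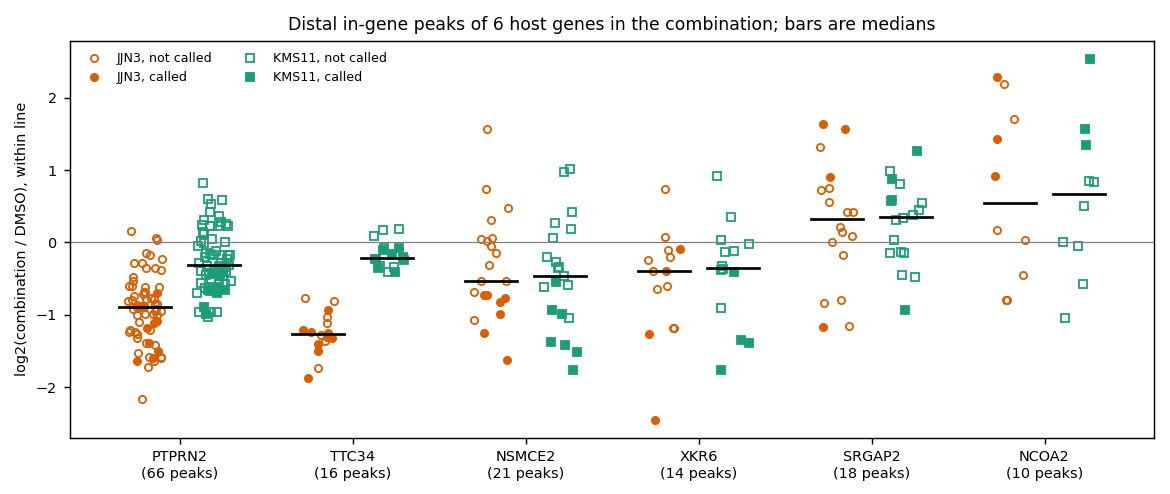
Log2 ratio of combination to DMSO within each line (y axis) for the distal in-gene peaks of 6 host genes; circles are JJN3, squares KMS11, filled points are peaks called over both lines and bars are medians. The medians of TTC34 are -1.27 in JJN3 and -0.21 in KMS11, those of PTPRN2 are -0.89 and -0.32, and those of the other 4 genes lie closer together.

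Summing the distal in-gene counts of each host gene gave 7284 values, of which 166 rose and 271 fell in the combination (6.0%) and 57 rose and 15 fell under pomalidomide (0.988%). Over all sums tested, which include the other peaks of each gene, 3.94% and 0.676% were called. Among the 6 sums with the lowest p in the combination, those of CTNND1, ITGA10 and ATOH8 are single peaks. In ATOH8, the gene of a basic helix-loop-helix factor, the sum was 59.9 CPM in JJN3 and 18.0 CPM in KMS11 under the combination, against 13.0 and 5.94 CPM under DMSO (1.88 ± 0.27, adjusted p = 1.17e-05). SYT2 sums 4 peaks and rose by 1.1 ± 0.16 (adjusted p = 1.74e-05). Of the 6 hosts with the most peaks, PTPRN2 was called at -0.63 ± 0.12 (adjusted p = 0.00104). The other 5, AUTS2, CNTNAP2, RUNX1, PDE4D and DLGAP1, had summed changes between -0.08 and 0.17 in the combination and were not called.

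The promoter peaks of the host genes were compared with these peaks. In 4062 genes that have both kinds, the summed change of the distal in-gene peaks and that of the promoter peaks had a Pearson correlation across genes of 0.08 in the combination, 0.06 under pomalidomide and 0.09 under GNE-781. Both values of a gene come from the same libraries, and genes are not independent replicates. Of 608 of these genes with a distal in-gene peak called in the combination, 25 had a promoter peak called, in 17 of them with all calls in 1 direction. Under pomalidomide it was 3 of 182. Of all promoter peaks tested, 1.69% were called in the combination and 0.49% under pomalidomide; those are shares of peaks, whereas a gene can hold several.

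Genes of plasma cell identity were read in lists chosen for myeloma, with results of these data known. Their shares called in the combination are to be set beside the 6.21% of all distal in-gene peaks and the 4.79% of all tested peaks. The share was 15.6% for plasma cell surface and secretory genes, 9.0% for myeloma transcription factors, 6.59% for B cell genes and 13.8% for IKAROS, cereblon, acetyltransferase and bromodomain genes. It was 14.6% for ETS, 9.38% for AP-1, 16.0% for cell cycle, 9.28% for mTOR and PI3K and 14.3% for NF-kB genes. Adhesion genes had 3.88%, very long genes 6.3% and interferon genes 0.0%. Most of these lists hold fewer than 100 peaks, and the shares were not tested. Of 32 distal in-gene peaks in plasma cell surface and secretory genes, 5 fell in the combination and none rose, with a median log2 change of -0.46 against -0.01 over all distal in-gene peaks. SDC1 encodes CD138, the surface proteoglycan by which plasma cells are recognised. Its peak at chr2:20206977-20207506 had 15 CPM in JJN3 and 14.6 CPM in KMS11 under the combination, against 36.1 and 28.7 CPM under DMSO (-1.09 ± 0.26, adjusted p = 0.00548). A second SDC1 peak, chr2:20214260-20214619, fell by 1.38 (adjusted p = 0.00487). CD44, an adhesion receptor for hyaluronan, fell by 1.06 (adjusted p = 0.0373). SEL1L and DNAJC3, genes of endoplasmic reticulum quality control and stress, fell by 0.83 and 2.24 (adjusted p = 0.0253 and 0.0424).

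Of 100 peaks in myeloma and plasma cell transcription factor genes, 4 rose and 5 fell. MEF2C, a MADS-box factor, had at chr5:88785632-88786310 6.79 and 21.4 CPM under the combination, against 1.5 and 3.11 CPM under DMSO (2.6 ± 0.43, adjusted p = 6.12e-05). KLF13, ETV6 and STAT3 rose by 1.47, 1.1 and 2.01. POU2AF1, a co-activator needed by B lineage cells, fell by 1.08 (adjusted p = 0.047), and ZBTB20 and ZBTB38 fell by 1.79 and 0.93. The peak chr4:102598959-102599423 in NFKB1, which encodes an NF-kB subunit, fell by 2.14 (adjusted p = 0.00513). In B cell genes 1 of 91 peaks rose, that of BANK1 (2.25, adjusted p = 0.00163), and 5 fell, in TCF4, FOXP1 (2 peaks), BACH2 and BLK.

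Genes of the drugs' own machinery were called in both directions. Of 29 peaks in genes of IKAROS factors, cereblon, acetyltransferases and bromodomain proteins, 2 rose and 2 fell. The peak in ZBTB16, which encodes the zinc finger factor PLZF, had 13.6 CPM in JJN3 and 13.7 CPM in KMS11 under the combination, 7.0 and 10.5 CPM under pomalidomide, 4.49 and 3.88 CPM under GNE-781, and 3.01 and 1.04 CPM under DMSO. It rose by 3.09 ± 0.49 in the combination (adjusted p = 3.05e-05) and by 2.48 under pomalidomide (adjusted p = 0.00354). IKZF3, the gene of a factor that pomalidomide removes, had a peak 105914 bp into the gene with 22.8 and 16.4 CPM under the combination, against 9.77 and 7.25 CPM under DMSO (1.22 ± 0.33, adjusted p = 0.0171). IKZF2 and KMT2A fell by 1.4 and 2.13 (adjusted p = 0.0348 and 0.0194).

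ETS family genes had 3 rises and 3 falls among 41 peaks, with ETV7 (1.79, adjusted p = 0.000905), ETV1 and ETV6 higher and FLI1 (2 peaks) and ELF4 lower. AP-1, BATF, BACH and small MAF genes had 1 rise, in BACH1, and 2 falls, in ATF2 and BACH2, among 32. Cell cycle and apoptosis genes had 3 rises and 5 falls among 50. Among them BMF, a pro-apoptotic gene, and CCND3, a G1 cyclin, rose by 1.04 and 0.95, and the survival genes BCL2 (2 peaks) and BCL2L1 fell by 1.36, 1.14 and 1.22. BCL2L1 stood at 10.7 CPM in JJN3 and 9.26 CPM in KMS11 under the combination, against 21.0 and 23.8 CPM under DMSO.

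Genes of mTOR and PI3K signalling had 5 rises and 4 falls among 97 peaks. DEPTOR, an mTOR inhibitor that myeloma cells often hold at high levels, fell at chr8:119909085-119909666 to 4.85 CPM in JJN3 and 4.45 CPM in KMS11 under the combination, against 6.01 and 25.9 CPM under DMSO (-1.97 ± 0.38, adjusted p = 0.000687). This fall lay mostly in KMS11, and with single libraries left out its value ranged from -2.4 to -0.64. NF-kB genes had 3 falls among 21, of which 2 lie in NFKB1. Interferon genes had no call among 15, where 2 rose under pomalidomide, 1 of them in USP18 (1.21, adjusted p = 0.0151). Adhesion and catenin genes had 2 rises and 3 falls among 129, and very long genes 10 and 13 among 365. In the last group LRP1B and RAD51B rose by 2.44 and 3.03. Under GNE-781 no list had a call. Beside the -0.01 of all distal in-gene peaks, the median change in the combination was 0.03 for the transcription factors, -0.17 for the B cell list and -0.09 for the IKAROS and cereblon list. It was 0.03 for AP-1, -0.07 for ETS, 0.12 for NF-kB, -0.40 for interferon, -0.01 for mTOR and 0.06 for cell cycle genes. For adhesion and very long genes it was -0.05 and -0.03.

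Lists of other cell types were read the same way. T and NK cell genes had 3 rises, in TRAC, and 3 falls, in CD247, among 18, stromal and endothelial genes 1 rise, in PECAM1, among 16, and myeloid and erythroid genes none among 2 and 13. The shares called were 33.3%, 6.25%, 0.0% and 0.0%, beside the 6.21% of all distal in-gene peaks. The summed promoter signal of T and NK cell markers (2 of 10 genes with such a peak) was 82.9 CPM in JJN3 and 56.8 CPM in KMS11 under the combination, against 68.4 and 53.3 CPM under DMSO. Whether that moved the TRAC and CD247 calls was not tested, and the annotated TRAC transcripts span the receptor locus. The list calls were fragile. Of 67 peaks named from lists in the combination, 61 lost the call without the KMS11 DMSO library and 61 without the KMS11 combination library, and none kept it under every omission. At the NFKB1 peak chr4:102616277-102616976 KMS11 had 18.3 CPM under the combination and 41.2 CPM under DMSO, and JJN3 had 2.91 and 2.25 CPM. The NFKB1 value was -1.02 over both lines and 0.32 without the KMS11 combination library. The pomalidomide value at the rising CDK6 peak was 1.43, and it was -0.01 without the KMS11 pomalidomide library.

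The lines differed far more than the treatments. Comparing 4 JJN3 with 4 KMS11 libraries, 3699 distal in-gene peaks were at least 2-fold higher and 3411 at least 2-fold lower in JJN3 at an adjusted p under 0.05. That is 35.9% of them, where 31.9% of all tested peaks were called (16.1% higher and 15.8% lower) and 21.7% of promoter peaks. In peaks 1 to 10 kb from a start 32.2% were called. Distal peaks outside genes had 37.5%, a larger share than distal in-gene peaks. Among the called distal in-gene peaks, the CPM of the lines did not overlap in 3104 of the 3699 and 2710 of the 3411. Calling at 2-fold favours such separation, and it was not counted over all tested peaks. The share called was larger farther from the start, with 33.4% from 10 to 20 kb, 34.8% from 20 to 50 kb, 35.6% from 50 to 100 kb, 38.2% from 100 to 200 kb, 39.9% from 200 to 500 kb and 44.5% beyond 500 kb. No test was made of this order. In ATAC-seq, more copies of a region and more open chromatin per copy cannot be told apart.

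The JJN3-high peak with the lowest p lies in PTP4A3, the gene of the phosphatase PRL-3, at chr8:141402586-141403315. It had 97.9 to 131 CPM in the 4 JJN3 libraries and 5.16 to 11.1 CPM in the 4 KMS11 libraries (3.84 ± 0.16, adjusted p = 7.51e-30). PVT1, a noncoding RNA gene next to MYC, had at chr8:127910928-127911851 120 to 154 CPM in JJN3 and 7.93 to 18.4 CPM in KMS11 (3.51 ± 0.16, adjusted p = 1.54e-28). ZCCHC14 had 60.1 to 72.7 CPM in JJN3 and 0.89 to 2.85 CPM in KMS11 (5.37 ± 0.23). At each of these peaks the lines were separated whatever the treatment, which the rule for naming line differences required. ZNF407, LMF1 and KIF26B were higher in JJN3 by 4.33, 3.83 and 3.94.

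On the KMS11 side, a peak in the immunoglobulin heavy chain locus annotated to IGHM, chr14:105999498-106001058, had 0.0 to 0.752 CPM in JJN3 and 58.1 to 76.3 CPM in KMS11 (-6.91 ± 0.31, adjusted p = 1.21e-28). Antibody genes are rearranged in plasma cells, the annotated transcript spans the locus, and absence of the DNA and closed chromatin cannot be told apart here. LINC00461 is a noncoding RNA gene that carries the precursor of miR-9. Its peak at chr5:88660445-88661681 had 2.42 to 5.13 CPM in JJN3 and 72.7 to 105 CPM in KMS11 (-4.63 ± 0.21, adjusted p = 1.34e-28). SPATA5, ALPK1, AC074363.1 and CEP97, a centriole gene, were lower in JJN3, at -4.24, -3.89, -4.01 and -3.98. All 12 named line differences held with any library left out, which naming by lowest p without overlap favours.

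A second LINC00461 peak, chr5:88666870-88667446, overlies miR-9 itself, and its difference was not called, at -0.35 ± 0.26 (adjusted p = 0.252). It held 9 to 28 raw counts in JJN3 and 33 to 55 in KMS11. The mature miR-9-5p under it is given because LINC00461 carries it. The sequence is from RefSeq, build GRCh38.p14, written 5′ to 3′, with the seed (bases 2 to 8) in capitals.

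hsa-miR-9-5p, chr5:88666902-88666924, - strand: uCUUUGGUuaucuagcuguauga

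Some host genes leaned to 1 line. In DLGAP1 21 of 26 peaks were called higher in JJN3, in ZNF407 16 of 17, and in JAZF1, a zinc finger gene, 15 of 21, with none lower (12 without either combination library). Summed CPM in DLGAP1 was 831 to 870 in JJN3 and 250 to 267 in KMS11. In ZNF407 it was 490 to 567 in JJN3 and 91.6 to 111 in KMS11. On the other side, 15 of 43 CNTNAP2 peaks, 14 of 25 PTPRD peaks and 13 of 26 FRMD4A peaks were lower in JJN3, and 3 CNTNAP2 peaks and 1 PTPRD peak were higher. INPP4B had 9 of 12 peaks lower in JJN3, with summed CPM of 49.9 to 70.4 in JJN3 and 169 to 237 in KMS11. With any library left out, at least 20 DLGAP1 peaks and 16 ZNF407 peaks were called.

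These leanings varied by chromosome. The median log2 difference of distal in-gene peaks was 0.66 on chromosome 8, 0.42 on 11 and 0.39 on 18, and -0.75 on chromosome 4 and -1.01 on X. Promoter peaks had 0.51, 0.55, 0.36, -0.64 and -0.84 on the same chromosomes. Across 23 chromosomes the medians of both kinds of peak had a Pearson correlation of 0.96, and they share the same 8 libraries. On chromosome 4 36.4% of distal in-gene peaks were called lower in JJN3 and 5.29% higher, and on chromosome 8 38.5% were called higher and 6.75% lower. Within genes the distal in-gene and promoter differences correlated at 0.44 across 4062 genes, as a description only. Copy number was not measured here, and its part in these differences was not tested.

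**Figure D4:**
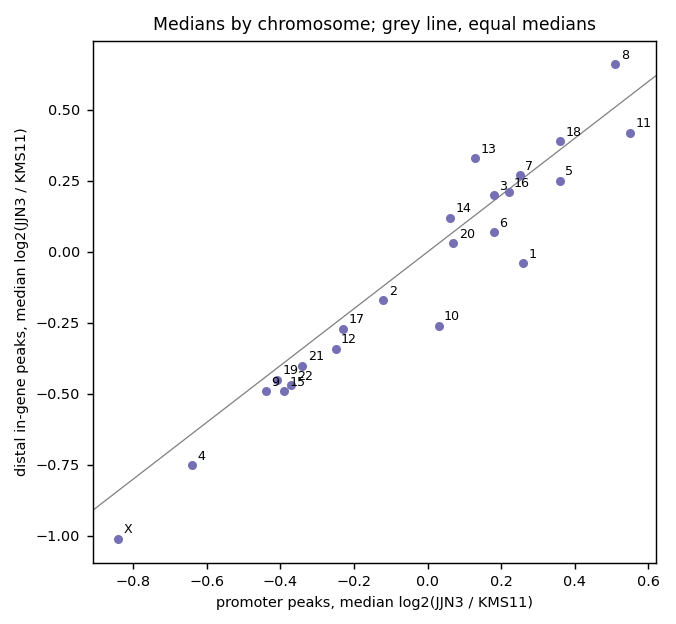
Median log2 ratio of JJN3 to KMS11 per chromosome, promoter peaks on the x axis and distal in-gene peaks on the y axis; each point is a chromosome, labelled by its name, and the grey line marks equal medians. Chromosome 8 lies at 0.66 for distal in-gene peaks and X at -1.01, and the 23 points run close to the line.

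Lastly, the drug effects themselves were compared between lines, in a model with 2 residual degrees of freedom. The pomalidomide effect differed between the lines at 19 distal in-gene peaks (0.096%), where 0.0675% of all tested peaks were called, and 13 of the 19 had the higher change in KMS11. The GNE-781 effect differed at 2 (0.0101%), where 0.00964% of all tested peaks were called. NPR3, the gene of the natriuretic peptide clearance receptor, had 6.3 CPM in JJN3 and 33.5 CPM in KMS11 under the combination, 9.33 and 31.7 under pomalidomide, 7.69 and 6.79 under GNE-781, and 13.5 and 7.25 under DMSO. This peak was higher in KMS11 and lower in JJN3 in both pomalidomide-treated libraries. The difference between the lines (JJN3 minus KMS11) was -2.64 (adjusted p = 0.00351).

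TMEM178B had 3.39 and 19.4 CPM under the combination, 4.67 and 32.4 CPM under pomalidomide, and 6.76 and 4.66 CPM under DMSO in JJN3 and KMS11 (-2.86, adjusted p = 0.0265). CD9, a tetraspanin gene, had 3.0 CPM in JJN3 and 12.6 CPM in KMS11 under pomalidomide, against 13.5 and 4.92 CPM under DMSO (-2.61, adjusted p = 0.0293). It had 3.88 and 17.3 CPM under the combination and 3.85 and 7.76 CPM under GNE-781. In JJN3 this peak was therefore low in every drug-treated library, with or without pomalidomide, and its DMSO value rests on 18 raw counts. In the other direction, MEF2C-AS1, a noncoding RNA gene beside MEF2C, had 13.0 and 3.43 CPM under pomalidomide, against 1.5 and 6.21 CPM under DMSO (3.67, adjusted p = 0.0293). ATP11A, the gene of a lipid flippase, had 27.7 and 2.79 CPM, against 8.27 and 5.69 CPM (2.29, adjusted p = 0.0293). THEM7P rose in both lines but by more in KMS11, with 16.7 CPM in JJN3 and 52.5 CPM in KMS11 under pomalidomide, against 12.0 and 6.99 CPM under DMSO.

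The GNE-781 effect differed at RNF219-AS1, which had 2.56 CPM in JJN3 and 5.17 CPM in KMS11 under GNE-781, against 1.5 and 29.8 CPM under DMSO (3.47, adjusted p = 0.0304), and at ZNF804A (3.55, adjusted p = 0.0465). Several of these peaks are near 0 in 1 library, and with other scaling offsets (cyclic loess) 1 and 0 of them were called.

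**Figure D5:**
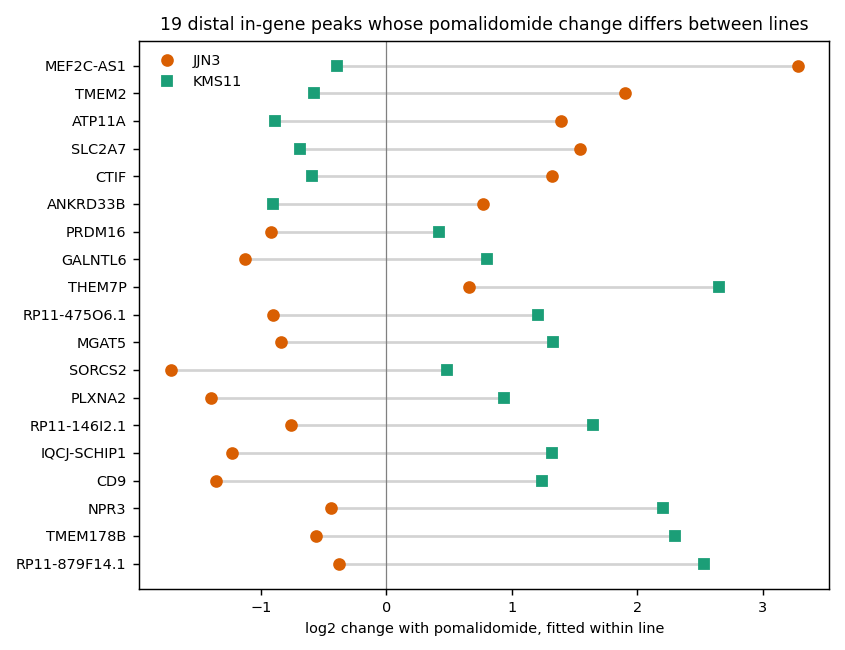
Fitted log2 change with pomalidomide (x axis) in JJN3 (circles) and KMS11 (squares) at the 19 distal in-gene peaks where it differed between the lines, named by host gene. At 6 peaks, from MEF2C-AS1 to ANKRD33B, JJN3 has the higher change, and at 13, from PRDM16 to RP11-879F14.1, KMS11 has.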

How the data were processed

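ATAC-seq libraries of 8 conditions were read from 1 table of whole-number counts per peak, which the authors deposited unnormalized for 62528 peaks with the annotation of the nearest transcript. The submitters' processing notes name the build GRCh38, the aligner Bowtie2 2.3.5.1 and the peak caller MACS2 2.1.1.20160309. Per the same notes, Trim Galore 0.6.4 with cutadapt 2.5, and also SAMtools 1.10 and R 4.1.2, were used. Not given in the sources used here: alignment parameters, duplicate handling, any shift for the transposase, how peaks were joined over libraries, and whether reads or fragments were counted. Cells of the same study with added BATF or eGFP were not analysed here.

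Each library was grouped by line and treatment from its labels. Counts were scaled by TMM and fitted with edgeR 4.0.16 (glmQLFit and glmQLFTest, line plus treatment, R 4.3.3) over the 62234 peaks with a mean of at least 2 CPM, with Benjamini-Hochberg adjustment over all of them and a threshold of 0.05. Differences between lines also had to reach 2-fold. The fit left 3 residual degrees of freedom (prior 62.8, common biological coefficient of variation 0.13). Line-by-drug differences came from a model with separate drug effects per line, and host gene values from counts summed per gene and peak class. Shares of counts were compared by exact permutation over all arrangements, with NumPy 2.4.6. Total counts were 1366628 to 5435673, and the median distal in-gene peak had 10 to 39 counts per library, so single-library values of low peaks carry wide counting error.

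The rule for the members, which uses position alone, and the 17 gene lists were chosen with earlier results of these data known. Peaks were named by lowest p among calls that went the same way in both lines (8 per direction for the combination, 6 for pomalidomide and for the combination against each single agent, all for GNE-781), with 1 peak per host gene. For JJN3 against KMS11, 6 per direction were named by lowest p among calls whose CPM did not overlap between the lines, also with 1 peak per host gene. Some genes and 1 list that the rule names are not reported here. Called peaks of listed genes, the 6 hosts with the most peaks and the 6 with the lowest p of summed counts were also named. Other host genes, the line-by-drug peaks and the peaks over RefSeq starts were chosen after their values were seen. Alternatives were other scalings, filters, DESeq2 1.42.0, a distance of 20000 bp, and leaving out each library. Counts of calls per host gene and per list under these were added after seeing the data.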

Additional observations from a re-analysis of the deposited data

Results flagged for a closer look

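The pomalidomide effect differed between JJN3 and KMS11 at 19 distal in-gene peaks and the GNE-781 effect at 2, by edgeR's test of the difference itself. In each line a condition has 1 library. The ALPK1 peak had 4.0 CPM in the JJN3 pomalidomide library, apart from the 6.79, 7.05 and 6.76 CPM of the JJN3 combination, GNE-781 and DMSO libraries. Of 26 groups of 4 libraries examined for such a gap, 1 was marked, where chance marks about 1 in 20.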

How the results depend on the processing

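The peaks called in each treatment comparison depended on single libraries and on the tool, and the cause was not tested. With any 1 library left out, the distal in-gene peaks called ranged from 135 to 1362 for the combination, 25 to 395 for pomalidomide, 1 to 18 for GNE-781, 22 to 369 for the combination against GNE-781, 0 to 10 for the combination against pomalidomide and 6521 to 7170 between the lines. Summed host genes ranged from 62 to 480 in the combination and 8 to 109 under pomalidomide. DESeq2 called 160 for the combination, 23 for pomalidomide, 0 for GNE-781, 35 for the combination against GNE-781 and 0 for the combination against pomalidomide, and it gave no adjusted p for 9637, 9196 and 8730 peaks in the combination, pomalidomide and combination against GNE-781 comparisons. For GNE-781, 3 peaks were called with total counts only, with cyclic loess offsets or with a mean of at least 5 CPM, and 22 with the 4 compared libraries alone. Cyclic loess left 1 peak with a pomalidomide effect and 0 with a GNE-781 effect that differed between lines, and RLE size factors left 1 for GNE-781. With a library left out, the share of counts differed by 0.909 to 1.34 percentage points between lines (exact permutation p = 0.0571 to 0.114). The difference was 0.818 points at a distance of 20000 bp (exact permutation p = 0.0857). Without promoter counts it was 1.06 (exact permutation p = 0.0286, the smallest possible). Over the same omissions the share differed by -0.684 to -0.0581 with GNE-781 and by -0.472 to 0.248 with pomalidomide. The pomalidomide value changed sign to 0.248, 0.0358 and 0.188 without the JJN3 DMSO, JJN3 GNE-781 and KMS11 combination libraries. Among named peaks, leaving out 1 library gave an NFKB1 peak values of -1.16 to 0.32 in the combination, with 0.32 without the KMS11 combination library. Under pomalidomide KDR ranged from -0.12 to 1.69 and a CDK6 peak from -0.01 to 1.92, with the lowest values without the KMS11 pomalidomide library. Treatments were compared within line, since line is in the model. No further pairing was possible, because each condition has 1 library and the labels give no replicate numbers beyond the line.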
